A study of Saccharomyces cerevisiae with 6 samples.

Results

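The ATG genes of budding yeast encode the proteins of autophagy. Of the 5449 Saccharomyces cerevisiae genes read on the arrays, 34 had an annotated symbol made of ATG and a number, and each of the 34 was read by 1 probe set. They were sorted by known role into 18 genes of the core machinery, 6 selective receptors and 10 other members. RNA came from strain VTT C-10883 grown anaerobically in chemostats, in which fresh medium replaces culture at a steady rate. In 3 cultures there was no treatment, and in 3 the feed had been stepped to one containing hydroxymethylfurfural (HMF) together with furfural, both of them aldehydes that form when plant sugars break down. The cultures are labelled as biological replicates, and no dose, dilution rate or time since the step is stated in the labels. The groups rest on each sample's title and treatment label, since the step to aldehyde medium is written in the protocol of all 6 samples.

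Autophagy wraps cytoplasm in a double membrane, the autophagosome, and delivers it to the vacuole, where enzymes degrade it. The Atg1 kinase complex starts the process when nutrient signalling through the kinase TORC1 falls, Atg9 vesicles and a lipid kinase build the membrane, and the ubiquitin-like proteins Atg8 and Atg12 are attached to their targets to extend it. Receptors tie a chosen cargo, such as mitochondria, peroxisomes or endoplasmic reticulum, to Atg8 and to the scaffold Atg11. In growing yeast a related route, the cytoplasm-to-vacuole targeting (Cvt) pathway, uses the same machinery to carry hydrolases into the vacuole. Many ATG transcripts are known to rise on nitrogen starvation.

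The values are log2 signals, so a difference of 1 is a doubling. The median within-group SD was 0.07 for the ATG genes and 0.06 for all genes. All 34 ATG genes lay above background, set as the 95th percentile of fission yeast probe sets, on all 6 arrays, but that level (2.22 on each array) lies next to the lowest value of the table, 2.21. The same arrays carry 17 probe sets for fission yeast atg genes, and 0 of these passed background on all 6 arrays. ATG4, ATG7, ATG14, ATG15, ATG16 and ATG29 stayed below a signal of 5 on every array, where a change is understated, and none of these 6 was called. For ATG29, 4 of the 6 arrays shared a single value of 2.65, and for ATG4, 3 arrays shared 3.97. The anaerobic cell wall gene DAN1 read 11.6 to 12.1 and the peroxisomal catalase gene CTA1 2.50 to 2.61, while CYC1, a cytochrome c gene used with oxygen, read 8.46 to 8.86. Other anaerobic genes checked were mixed. ANB1 read 10.7 to 11.7, TIR1 12.6 to 12.9, TIR3 12.2 to 12.5 and HEM13 11.3 to 11.4, but AAC3 read 6.82 to 7.73. The anaerobic gene COX5B, at 8.16 to 8.44, lay below the aerobic gene COX5A, at 10.5 to 10.7. HYP2 and CYC7 were checked too. HYP2 read 12.4 to 12.6, above ANB1 on every array, and CYC7 read 7.42 to 8.51, below CYC1 on every array. A signal gives RNA relative to all RNA of a culture, so a change in the other RNA can also shift it. RNA was read from whole cultures, so fewer cells with a transcript and less transcript per cell cannot be told apart.

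With HMF and furfural, 11 of the 34 ATG genes fell and 3 rose, while 20 did not pass an adjusted p of 0.05 in limma. Over all genes tested, 42.2% passed (19.9% higher and 22.3% lower), against 41.2% of the ATG genes (8.82% higher and 32.4% lower). The share that changed was thus near the background. The median log2 difference was -0.11 for the ATG genes and -0.0068 for all genes. Negative differences numbered 26 of the 34, and 2917 of the 5449 over all genes. Most differences were small. ATG39 was the single member that moved by more than 1.5-fold, and the 14 that passed ranged from a log2 difference of -0.75 to 0.16. In 20 ATG genes the groups were fully apart, 17 with the inhibitor arrays below and 3 with them above. The same held for 55.4% of all genes, with 29.3% below and 26.1% above.

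**Figure D1:**
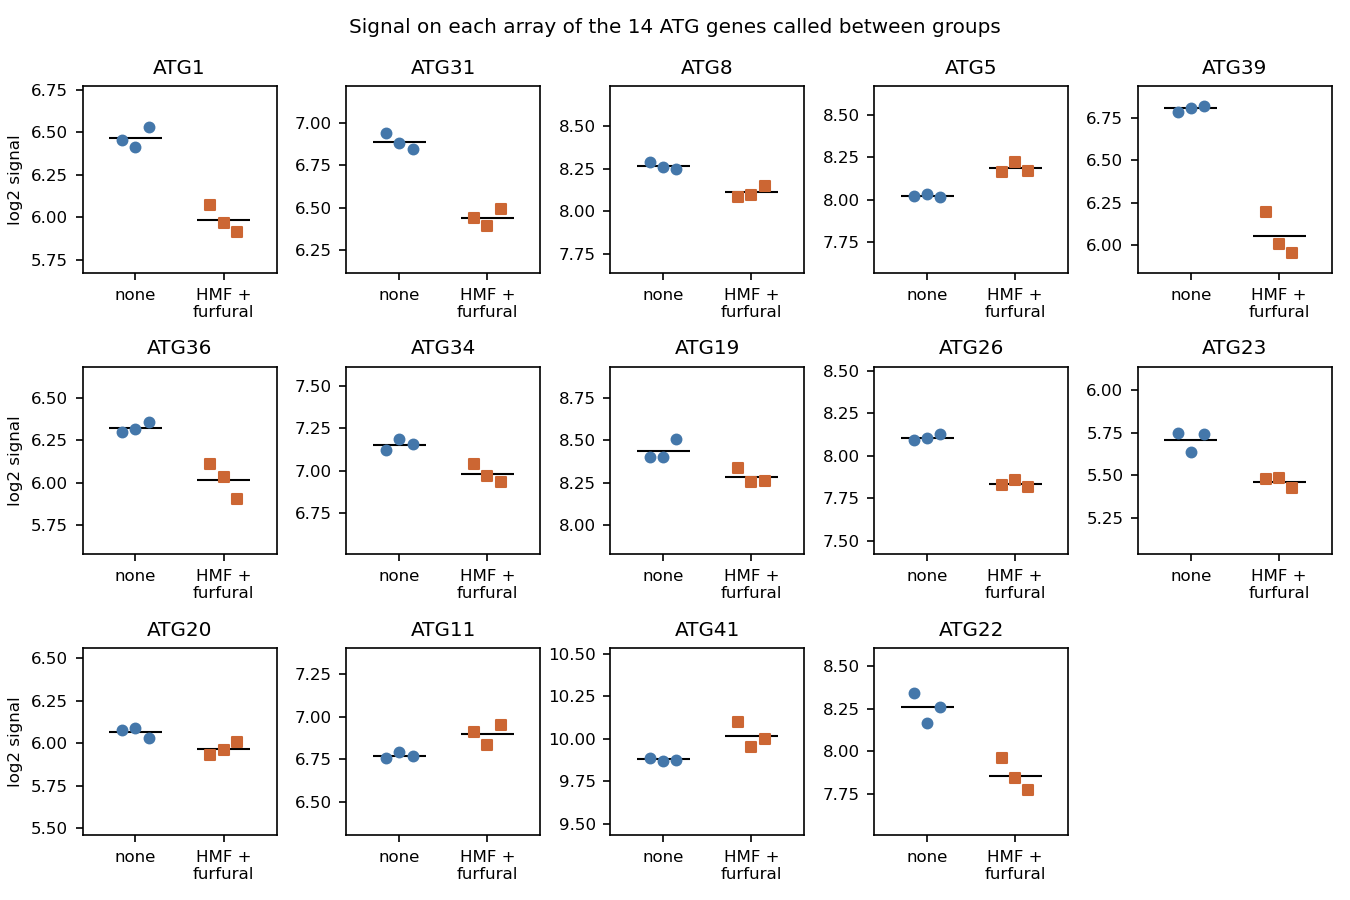
Log2 signal (vertical axis) of the 14 ATG genes that passed the test, with 1 point per array, circles for cultures without inhibitors, squares for cultures with HMF and furfural, and a line at each group's mean. Every panel spans the same log2 range around its own gene, and in no panel do the groups overlap: 11 genes were lower with inhibitors, and ATG5, ATG11 and ATG41 were higher.

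In the Atg1 kinase complex, which starts autophagosome formation, 2 of 5 genes fell and none rose. Of all genes tested, 22.3% fell and 19.9% rose. ATG1, the protein kinase gene, read 6.45, 6.41 and 6.53 without inhibitors and 6.07, 5.96 and 5.91 with them. Every inhibitor array lay below every other array, and the mean level with inhibitors was 71.6% of that without (log2 difference -0.48, SE 0.05, adjusted p = 0.00226). ATG31, whose protein holds Atg29 to the scaffold protein Atg17, read 6.94, 6.88 and 6.85 without and 6.44, 6.39 and 6.49 with inhibitors. Here too the groups were apart, by a log2 difference of -0.45 (SE 0.04, adjusted p = 0.00106).

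The other subunit genes of this complex did not pass. ATG13, the regulatory subunit gene whose protein is phosphorylated by TORC1, had a log2 difference of -0.02 with a 95% interval of -0.13 to 0.10. For the scaffold gene ATG17 the interval was -0.20 to 0.18, and for ATG29 it was -0.19 to 0.05. The intervals of ATG1 (-0.62 to -0.35) and ATG31 (-0.54 to -0.35) overlapped none of these 3, although the differences between genes were not tested. ATG29 stayed below a signal of 5, where a change is understated, so its interval says little about that transcript. ATG17 read 5.18 in inhibitor replicate 1 against 5.41 and 5.44 in the other inhibitor arrays, and 5.34 to 5.37 without inhibitors.

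Genes of membrane supply and of the lipid kinase gave no call. ATG9, the gene of the membrane protein carried by the starting vesicles, read 5.46, 5.35 and 5.53 without inhibitors and 5.30, 5.37 and 5.27 with them. Its groups overlapped, and the log2 difference of -0.13 (95% interval -0.27 to 0.0049) had an adjusted p of 0.107, or 0.0397 without no-inhibitor replicate 2. ATG2, which encodes a lipid transfer protein, had a log2 difference of -0.11 (interval -0.36 to 0.14). ATG18, whose protein binds phosphatidylinositol 3-phosphate and works with Atg2, had one of -0.17 with groups that did not overlap (adjusted p = 0.0879). ATG14, the subunit gene that directs the phosphatidylinositol 3-kinase to autophagy, had a log2 difference of -0.21 (interval -0.45 to 0.04). ATG38, which encodes a linker of the same kinase complex, differed by 0.0097 with the narrow interval of -0.05 to 0.07.

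Genes of the ubiquitin-like proteins moved both ways. ATG8, the gene of the protein that is joined to the lipid phosphatidylethanolamine, read 8.29, 8.26 and 8.25 without inhibitors and 8.09, 8.10 and 8.15 with them. The groups were apart, yet the fall was slight: the level with inhibitors was 89.9% of that without (log2 difference -0.15, SE 0.03, adjusted p = 0.00736). ATG7, the activating enzyme gene shared by both systems, had a log2 difference of -0.29 (interval -0.60 to 0.0088, adjusted p = 0.105), with 3.91 in inhibitor replicate 3 against 4.34 and 4.32. Without that array the difference was -0.16 and passed (adjusted p = 0.012). ATG3, the conjugating enzyme gene for Atg8, and ATG4, the gene of the protease that trims and releases it, had log2 differences of -0.12 and -0.07 and did not pass.

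In the Atg12 system 1 of 4 genes rose and none fell, where 19.9% of all genes rose and 22.3% fell. ATG5, the gene of the protein to which Atg12 is attached, read 8.02, 8.04 and 8.02 without inhibitors and 8.16, 8.22 and 8.17 with them. The inhibitor arrays were all above the others, by a log2 difference of 0.16 (SE 0.02, adjusted p = 0.00457). ATG12 itself had a log2 difference of 0.07 (interval -0.01 to 0.16), the conjugating enzyme gene ATG10 one of -0.07 (interval -0.22 to 0.08), and ATG16, whose protein dimerizes the conjugate, lay at the floor at 2.22 to 2.28. ATG8 fell and ATG5 rose under all 14 alternative fits at this threshold, each of which left both calls in place.

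**Figure D2:**
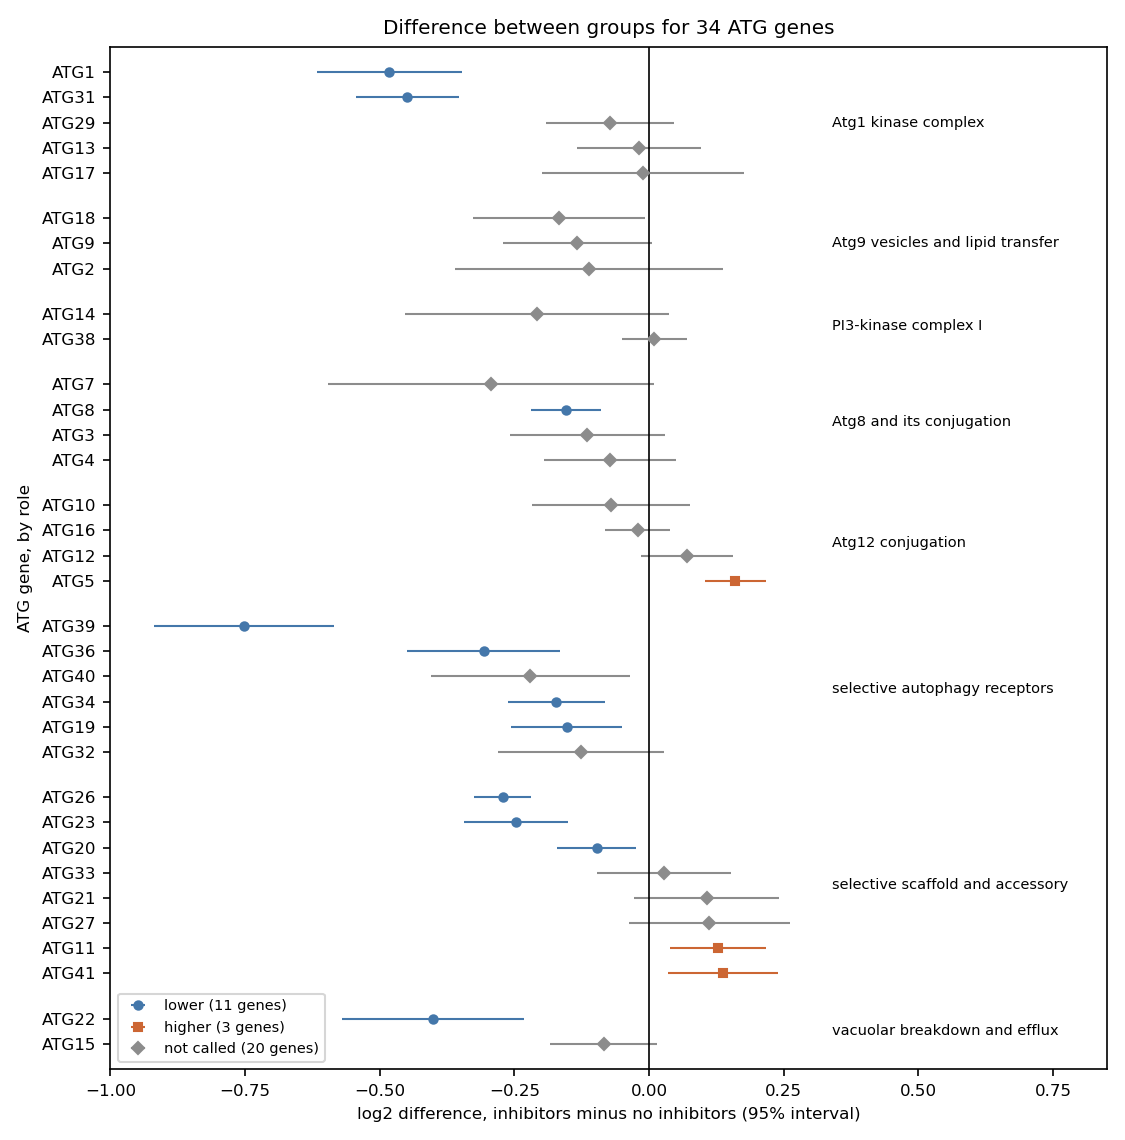
Log2 difference between cultures with and without inhibitors (horizontal axis) for each of the 34 ATG genes, grouped by role, with bars for limma's 95% interval over 3 arrays against 3. Circles mark genes that fell, squares genes that rose and diamonds genes that did not pass; all 6 receptor genes lie left of 0, from -0.75 to -0.13.

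Of the 6 selective receptor genes, 4 fell and none rose, and in all 6 every inhibitor array lay below every other array. Over all genes tested, 22.3% fell, 19.9% rose and 29.3% had the inhibitor arrays below all others. ATG39, the receptor gene for the nuclear envelope and perinuclear endoplasmic reticulum, read 6.79, 6.81 and 6.82 without inhibitors and 6.20, 6.01 and 5.95 with them. The arrays without inhibitors agreed within 0.04, and inhibitor replicate 1 was the highest of its group. The mean level with inhibitors was 59.4% of that without, the largest fall among the ATG genes (log2 difference -0.75, SE 0.07, adjusted p = 0.00118). Of all genes tested, 1.58% had a lower log2 difference than ATG39.

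ATG36, the receptor gene for peroxisomes, read 6.30, 6.32 and 6.36 without inhibitors and 6.11, 6.03 and 5.90 with them. The groups were apart, with a log2 difference of -0.31 (SE 0.06, adjusted p = 0.01). ATG40, the receptor gene for the cortical and cytoplasmic endoplasmic reticulum, read 7.43, 7.55 and 7.53 without inhibitors and 7.40, 7.14 and 7.30 with them. Its highest inhibitor array, replicate 1, lay just under the lowest array without inhibitors. The log2 difference of -0.22 (SE 0.07) did not pass (adjusted p = 0.0606), although it did without that inhibitor array (adjusted p = 0.0325) and in 4 further alternative fits.

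ATG19 and ATG34 are neighbouring genes for related receptors of vacuolar hydrolases, Atg19 in the Cvt pathway and Atg34 in starved cells. ATG19 read 8.40, 8.40 and 8.51 without inhibitors and 8.34, 8.25 and 8.26 with them, and ATG34 read 7.12, 7.19 and 7.16 without and 7.04, 6.97 and 6.94 with them. Neither pair of groups overlapped, and the log2 differences were alike at -0.15 (SE 0.04, adjusted p = 0.0325) for ATG19 and -0.17 (SE 0.04, adjusted p = 0.0146) for ATG34. Whether the probe sets of these related genes read each other's RNA was not tested. The call for ATG19 was lost without any array other than inhibitor replicate 1 (adjusted p = 0.0551 to 0.0959), and the call for ATG34 without inhibitor replicate 2 (adjusted p = 0.0509). ATG32, the mitophagy receptor gene on the mitochondrial outer membrane, read 6.19, 6.21 and 6.15 without inhibitors and 6.14, 5.93 and 6.11 with them. That log2 difference of -0.13 (interval -0.28 to 0.03) did not pass (adjusted p = 0.156).

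The core machinery gave fewer calls for its size. Of its 18 genes, 3 fell, 1 rose and 14 did not pass, so 22.2% were called against 66.7% of the receptors and 42.2% of all genes. Signal level differed between the lists. The uncalled core genes ATG4, ATG7, ATG14, ATG16 and ATG29 stayed below a signal of 5, where a change is understated, and no receptor did. The median log2 difference was -0.09 for the core genes and -0.20 for the receptors, against -0.0068 for all genes. Inhibitor arrays lay below all others in 6 of 6 receptor genes and in 7 of 18 core genes, where the share over all genes was 29.3%. The share of genes that fell was 66.7% of the receptors and 16.7% of the core, against 22.3% of all genes tested. This contrast depends on the threshold: at an adjusted p under 0.01, 3 of 18 core genes and 1 of 6 receptors fell. These are descriptions of 2 short lists whose genes are not replicates, and no test of the difference between the lists was made. The log2 differences of the core genes ATG1 and ATG31 were larger in size than those of 5 of the 6 receptors.

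**Figure D3:**
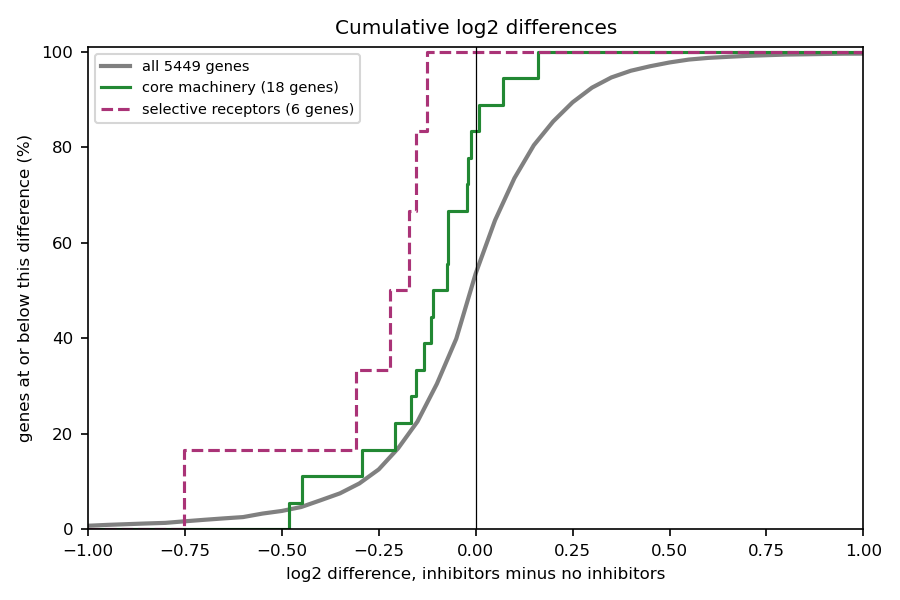
Share of genes in percent (vertical axis) with a log2 difference, inhibitors minus no inhibitors, at or below the value on the horizontal axis, for all 5449 genes, the 18 core genes and the 6 receptor genes. The receptor line reaches 100% left of 0, while 3 of the 18 core genes lie to the right of 0.

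Among the 8 scaffold and accessory genes, 3 fell and 2 rose (37.5% and 25%), against 22.3% and 19.9% of all genes. ATG11, the scaffold gene whose protein binds the receptors, rose where 4 receptor genes fell. It read 6.76, 6.79 and 6.77 without inhibitors and 6.91, 6.83 and 6.95 with them, a log2 difference of 0.13 (SE 0.04, adjusted p = 0.0358) with no overlap. That call was lost without any array other than inhibitor replicate 2 (adjusted p = 0.0716 to 0.101). ATG41, whose protein interacts with Atg9, read 9.89, 9.87 and 9.88 without and 10.10, 9.95 and 10.00 with inhibitors. It rose by a log2 difference of 0.14 (SE 0.04, adjusted p = 0.0432), a call lost without inhibitor replicate 3 or any array without inhibitors (adjusted p = 0.0869 to 0.111).

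ATG26, a sterol glucosyltransferase gene that S. cerevisiae does not need for autophagy, read 8.09, 8.11 and 8.13 without inhibitors and 7.83, 7.86 and 7.82 with them. The arrays of each group lay close together, and its adjusted p was the lowest of the ATG genes (log2 difference -0.27, SE 0.02, adjusted p = 0.000889). ATG23 and ATG27 encode proteins that help Atg9 move between membranes. ATG23 read 5.75, 5.64 and 5.74 without and 5.48, 5.48 and 5.42 with inhibitors, a fall with no overlap (log2 difference -0.25, SE 0.04, adjusted p = 0.00593), whereas ATG27 had a log2 difference of 0.11 (interval -0.04 to 0.26) and did not pass.

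ATG20, a sorting nexin gene used in the Cvt pathway, read 6.08, 6.09 and 6.03 without inhibitors and 5.93, 5.96 and 6.01 with them. The groups came within 0.02 of each other, and the log2 difference of -0.10 (SE 0.03, adjusted p = 0.0445) no longer passed without any array other than inhibitor replicate 3 (adjusted p = 0.0503 to 0.123). ATG21, whose phosphoinositide-binding protein serves the same pathway, and ATG33, a gene for a mitophagy protein of the mitochondrial outer membrane, had log2 differences of 0.11 and 0.03 and did not pass.

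At the vacuole, ATG22, which encodes an exporter of the amino acids freed by autophagy, read 8.35, 8.17 and 8.26 without inhibitors and 7.96, 7.84 and 7.77 with them. The inhibitor arrays were all lower, at 75.7% of the level without inhibitors (log2 difference -0.40, SE 0.07, adjusted p = 0.00751). ATG15, the gene of the lipase that opens autophagic bodies, lay near the floor at 2.25 to 2.43 and did not pass.

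Across arrays, the fallen genes were not uniform within the inhibitor group. Inhibitor replicate 1 held the highest of the 3 inhibitor values in 6 of the 11 fallen genes, and replicate 3 held the lowest in 7. The same counts were not made over all genes that fell, so they may not be particular to the ATG genes. For the receptors, the median deviation from each gene's mean over 6 arrays was -0.03, -0.17 and -0.12 in inhibitor replicates 1, 2 and 3, and 0.06, 0.13 and 0.14 without inhibitors. For the core genes the medians lay between -0.08 and -0.01 with inhibitors and between 0.01 and 0.04 without. Over all genes the medians of the 6 arrays lay between -0.0091 and 0.02. What set the inhibitor cultures apart from each other was not tested.

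Genes that work with the ATG proteins were read from lists drawn up by role. Of 79 such genes, 14 rose and 22 fell (17.7% and 27.8%), against 19.9% and 22.3% over all genes. The 4 genes of the lipid kinase and of a sorting nexin partner, VPS30, VPS34, VPS15 and SNX4, gave no call, with log2 differences from -0.05 to 0.08, although 1 of them rose without inhibitor replicate 2. VPS30 is the yeast counterpart of mammalian beclin and sits in the same kinase complex as ATG14.

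Of 13 genes on a list of vacuolar enzymes and transporters, 7 fell and none rose, and all 13 log2 differences were negative (median -0.18). Of all 5449 genes, 22.3% fell and 2917 had a negative difference. The number that fell was 10 without inhibitor replicate 1 and 5 or 6 without any other array. The carboxypeptidase gene CPS1 read 9.87, 9.88 and 9.84 without inhibitors and 9.48, 9.41 and 9.21 with them, a log2 difference of -0.50 (SE 0.07, adjusted p = 0.00489). AVT4, which exports amino acids from the vacuole as ATG22 does, had a log2 difference of -0.38 (SE 0.04, adjusted p = 0.00192). This list also holds the transporter genes AVT3 and AVT6, a protease inhibitor gene, a sorting receptor gene and YPS3, a protease gene of the cell surface.

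Of 5 cargo and ubiquitin-receptor genes 3 rose (60%, against 19.9% of all genes) and none fell. But the rises numbered 2 without inhibitor replicate 3 or no-inhibitor replicate 2 and 1 without any other array. The bleomycin hydrolase gene LAP3 read 9.24, 9.21 and 9.19 without inhibitors and 9.45, 9.62 and 9.52 with them, a rise with no overlap (log2 difference 0.32, SE 0.05, adjusted p = 0.0047). AMS1, the alpha-mannosidase gene whose product Atg19 and Atg34 carry, rose by 0.18 (adjusted p = 0.0469), a call lost without any array other than inhibitor replicate 3 (adjusted p = 0.06 to 0.128). APE4, an aminopeptidase gene, had an adjusted p of 0.0417, and lost its call without any array other than no-inhibitor replicate 2 (adjusted p = 0.0569 to 0.117). APE1, which encodes the main Cvt cargo, had a log2 difference of -0.08 (interval -0.16 to 0.0022) and did not pass. Of 15 genes that fuse autophagosomes with the vacuole, 6 rose and 2 fell (40% and 13.3%), against 19.9% and 22.3% of all genes. There were 4 rises without replicate 1 or 3 of the inhibitor group (0 falls in either case), 4 without no-inhibitor replicate 3, and 5 without any other array, with 1 fall in each of these last 4 fits. The vacuolar SNARE gene VAM3 rose by 0.32 (SE 0.04, adjusted p = 0.00245) and SEC17, which helps to recycle SNAREs, by 0.23. The exchange factor gene MON1 fell by 0.34 (adjusted p = 0.0231) and the SNARE gene VAM7 by 0.25 (adjusted p = 0.0312). Leaving out any array other than replicate 2 of either group ended the call for MON1 (adjusted p = 0.0599 to 0.0698). For VAM7 the call was lost without any inhibitor array or no-inhibitor replicate 2 (adjusted p = 0.063 to 0.0878), and under quantile normalization. A fit with a replicate block ended both calls (adjusted p = 0.0762 for MON1 and 0.0667 for VAM7). VAM7 was also dim, at 4.04 to 4.45, where a change is understated.

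**Figure D4:**
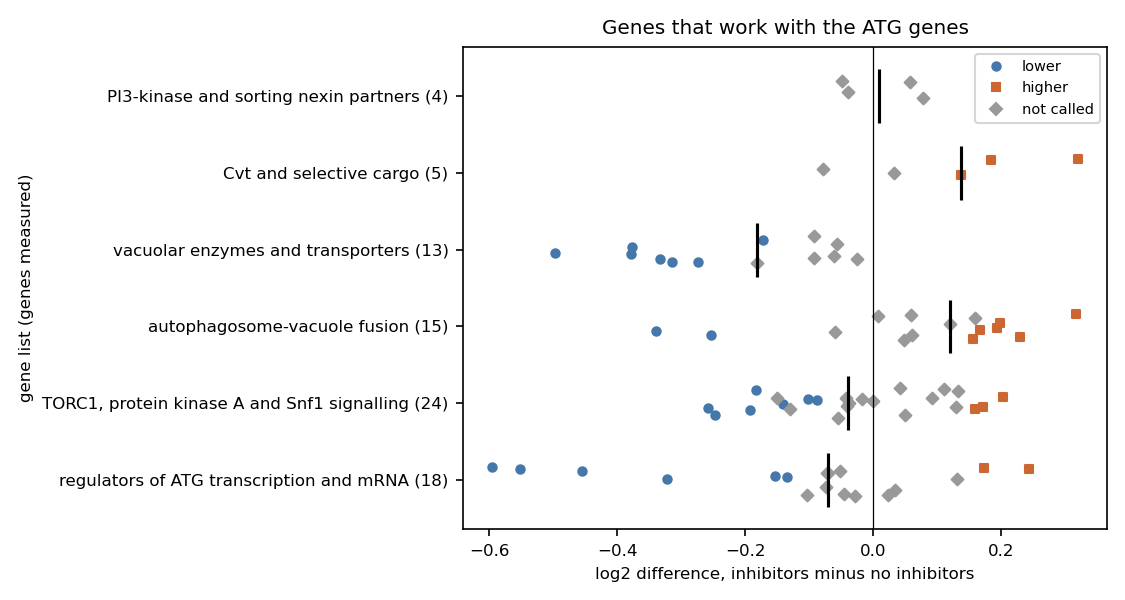
Log2 difference between cultures with and without inhibitors (horizontal axis) for 79 genes on 6 lists of autophagy partners, with circles for genes that fell, squares for genes that rose, diamonds for the rest and a vertical line at each list's median. No point on the vacuolar list lies above 0, and 12 of the 15 fusion genes do.

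Of 24 genes of TORC1, protein kinase A and Snf1 signalling, 3 rose and 7 fell, with log2 differences from -0.26 to 0.20. The share called, 41.7%, and the median size of the difference, 0.12, were close to those of all genes (42.2% and 0.12). The number of falls changed with single arrays: 2 were left without inhibitor replicate 2 or no-inhibitor replicate 1 or 3, 3 without inhibitor replicate 3 or no-inhibitor replicate 2, and 5 without inhibitor replicate 1. With a replicate block in the fit, 3 rose and 1 fell. RIM15, a kinase gene that acts in starvation, fell by 0.26 (SE 0.05, adjusted p = 0.00893), a call lost with that block (adjusted p = 0.0525). SCH9, the gene of a main TORC1 substrate, fell by 0.25 (adjusted p = 0.0348). TAP42, a phosphatase regulator gene under TORC1, rose by 0.20 (adjusted p = 0.0344), and MEH1, which ties TORC1 regulators to the vacuole, by 0.17 (adjusted p = 0.00499). The calls for SCH9 and TAP42 were each lost without any array other than inhibitor replicate 1 (adjusted p = 0.0631 to 0.0998 and 0.071 to 0.1).

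Of 18 genes for regulators of ATG transcription and mRNA, 2 rose and 6 fell (11.1% and 33.3%), against 19.9% and 22.3% of all genes. With 1 array left out, 5 or 6 fell, and 1 rose unless that array was inhibitor replicate 1. DAL80, the gene of a GATA repressor of nitrogen-regulated genes, read 6.05 on average with inhibitors against 6.65 without (log2 difference -0.59, SE 0.08, adjusted p = 0.00365). MSN4, a stress regulator gene, fell by 0.55 (SE 0.07, adjusted p = 0.00281). PHO23, a gene for a histone deacetylase subunit known to hold down ATG9, rose by 0.17 (SE 0.03, adjusted p = 0.0123), while ATG9 itself did not pass. DCP2, the decapping enzyme gene, rose by 0.24 (adjusted p = 0.0367), a call lost without any array other than inhibitor replicate 1 (adjusted p = 0.0562 to 0.102). UME6, the gene of the repressor of ATG8, fell by 0.15 (adjusted p = 0.0289). It was named after its value was seen, and its call was lost without any array other than no-inhibitor replicate 2 (adjusted p = 0.0563 to 0.0875).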

How the data were processed

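Arrays of 3 cultures without and 3 with HMF and furfural were compared. The deposited values are log2 signals per probe set; the submitters' processing notes name GCRMA and limma without a version. GCRMA normalizes between arrays and leaves low signals at a floor, and no further normalization was applied. The number of arrays limits the precision. Probe sets were named through the platform annotation and RefSeq assembly R64, which changed no ATG symbol; 5498 of 10762 probe sets gave 5449 S. cerevisiae genes, and 1746 fission yeast sets gave the background. The brightest set stood for a gene. R64 names ATG42, ATG44 and ATG45 too, which were not analysed here.

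The test was limma's moderated one (limma 3.58.1, R 4.3.3), with group as the single factor, two-sided, and Benjamini-Hochberg adjustment over 5449 genes (threshold 0.05). The fit was tested on simulated data. The members, lists and rules were chosen with earlier results of these data known. Values by array are given for every called ATG gene, ATG1, ATG8, ATG9, ATG11 and all receptors, and of each partner list up to 2 called rises and 2 called falls were named; VPS30, APE1, APE4 and UME6 were added after their values were seen. Promoter and protein sequences were not used here. Figures were drawn with matplotlib 3.10.9.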

Additional observations from a re-analysis of the deposited data

How the results depend on the processing

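Of the 14 ATG genes that passed, 9 did so in all 14 alternative fits: ATG1, ATG5, ATG8, ATG22, ATG23, ATG26, ATG31, ATG36 and ATG39. None of the 14 changed sign in any of these fits. The fits used quantile normalization, median centring, a background filter, trended and robust variances, weighted arrays, a replicate block, other choices of probe sets or 1 array fewer. Genes that did not pass crossed 0 in places: with 1 array left out ATG13 ranged from -0.052 to 0.029, ATG17 from -0.061 to 0.072, ATG33 from -0.011 to 0.071 and ATG38 from -0.0081 to 0.020. ATG17 gave 0.026 with array weights and 0.0084 under quantile normalization, where ATG4 gave 0.025. Leaving out 1 array gave 1 to 3 ATG genes higher and 8 to 11 lower, 2 to 5 receptors lower and medians of -0.114 to -0.093 for the ATG genes. The lowest receptor count, 2, came without inhibitor replicate 2. Arrays of the same replicate number had deviations from their group means that correlated at -0.22, -0.248 and -0.199, so the numbers were not taken to pair the cultures. With the replicate block 1 ATG gene was higher and 9 lower, of which 2 were receptors and 4 were core genes. In that fit ATG11, ATG19, ATG20, ATG34 and ATG41 lost their calls and ATG18 passed (adjusted p = 0.036). With array weights 1 ATG gene was higher. Under quantile normalization the ATG median was -0.074, with 0.0043 for all genes. At an adjusted p under 0.01, which must lower counts, 608 genes were higher and 582 lower, 1 ATG gene was higher and 7 lower, and 1 receptor was lower. The core count stayed at 3 lower. With ATG11 counted as a receptor, 1 of that class was higher. The cause of the other moves was not tested.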

Other observations

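Some ATG genes lie close together. ATG19 and ATG34 are next to each other with 0 genes between them, and both fell. ATG36 and ATG27 have 5 genes between them on chromosome X, where ATG36 fell by 0.31 on the log2 scale and ATG27 had a log2 difference of 0.11 and did not pass. ATG17 and ATG23 have 6 genes between them on chromosome XII, where ATG23 fell by 0.25 and ATG17 had a log2 difference of -0.01.

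In 6 ATG genes that did not pass the test, the inhibitor arrays lay below all arrays without inhibitors: ATG3, ATG7, ATG14, ATG18, ATG32 and ATG40. Counting genes that passed and genes that did not, such separation held for 17 of the 34 ATG genes and for 29.3% of all genes. As lower, 22.3% of all genes passed. The share among genes that did not pass was not counted, so these 6 have no like share beside them. Among the ATG genes that did not pass, ATG18 and ATG40 had a limma p under 0.05 before adjustment (0.0435 and 0.0269). The share of all genes at that level was not counted. Of the 20 genes that did not pass, 15 had a 95% interval within 0.3 of 0 on the log2 scale. Among these were ATG4, ATG15, ATG16 and ATG29, which were dim on every array, where a change is understated. Their intervals therefore say little about those transcripts. No such count was made over all genes.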
